A study of Mus musculus with 4 samples.

Results

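The Notch pathway genes described here are 10: the receptors Notch1, Notch2 and Notch3, the ligands Jag1, Jag2 and Dll1, the nuclear proteins Rbpj and Maml1, and the target genes Hes1 and Hey1. They were chosen by symbol as a pathway, with earlier results of these data known. All 10 were among the 22180 genes with a single symbol that were tested. RNA was measured on MoGene 2.0 arrays in primary keratinocytes of C57BL/6J mice 1 week old. Mice of both genotypes carried floxed Glut1 alleles (Glut1 fl/fl), and those that gave Glut1-deficient cells also had K14 Cre, a recombinase under the keratin 14 promoter, which the wild-type mice lacked. Each genotype had 4 mice and 2 arrays, each array a pool of 2 plates. All cells were grown in KSFM medium with 0.05 mM calcium chloride, EGF, insulin, hydrocortisone and pituitary extract, reseeded after 3 days at equal number and collected 1 day later. Keratin 14 is a gene of basal keratinocytes, so the deletion is limited to cells that use or once used this promoter and to their descendants.

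Notch signalling passes between touching cells. A ligand of the Jagged or Delta-like family on one cell pulls on a Notch receptor on its neighbour, the receptor is cut by ADAM10 and then by gamma-secretase, and the freed intracellular part enters the nucleus, where it joins the DNA-binding protein RBPJ and a Mastermind coactivator to switch on repressors of the HES and HEY families. In mouse epidermis, Notch activity is known for moving basal keratinocytes into the suprabasal programme and for restraining proliferation.

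Jag1 was the member that changed. It was 1.82-fold lower in Glut1-deficient keratinocytes, and no other member passed the test. Thus 1 of 10 members fell and 0 rose in limma (adjusted p under 0.05, Benjamini-Hochberg over all genes), beside 1.05% of all tested genes that fell, 1.79% that rose and 2.84% in either direction. At unadjusted p under 0.05 in limma, 2 members were higher (Rbpj and Maml1) and 2 were lower (Jag1 and Hes1). At that threshold 11% of all tested genes were higher and 11.2% lower, 22.2% in all. Of the 10 members, 9 lay above the median level of all tested genes. When only the 11090 genes above it were fitted, 2070 were higher and 2246 lower at unadjusted p under 0.05 in limma. In that fit 2 members were higher and 3 lower. The median log2 fold change of the 10 members was -0.18, beside -0.0074 over all tested genes. The arrays of the genotypes did not overlap for 8 members, 4 higher and 4 lower in Glut1-deficient cells, beside 53.2% of all tested genes (25.5% higher and 27.7% lower). Values are log2 intensities, and the levels of different genes cannot be compared with one another because each gene has its own probes.

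**Figure D1:**
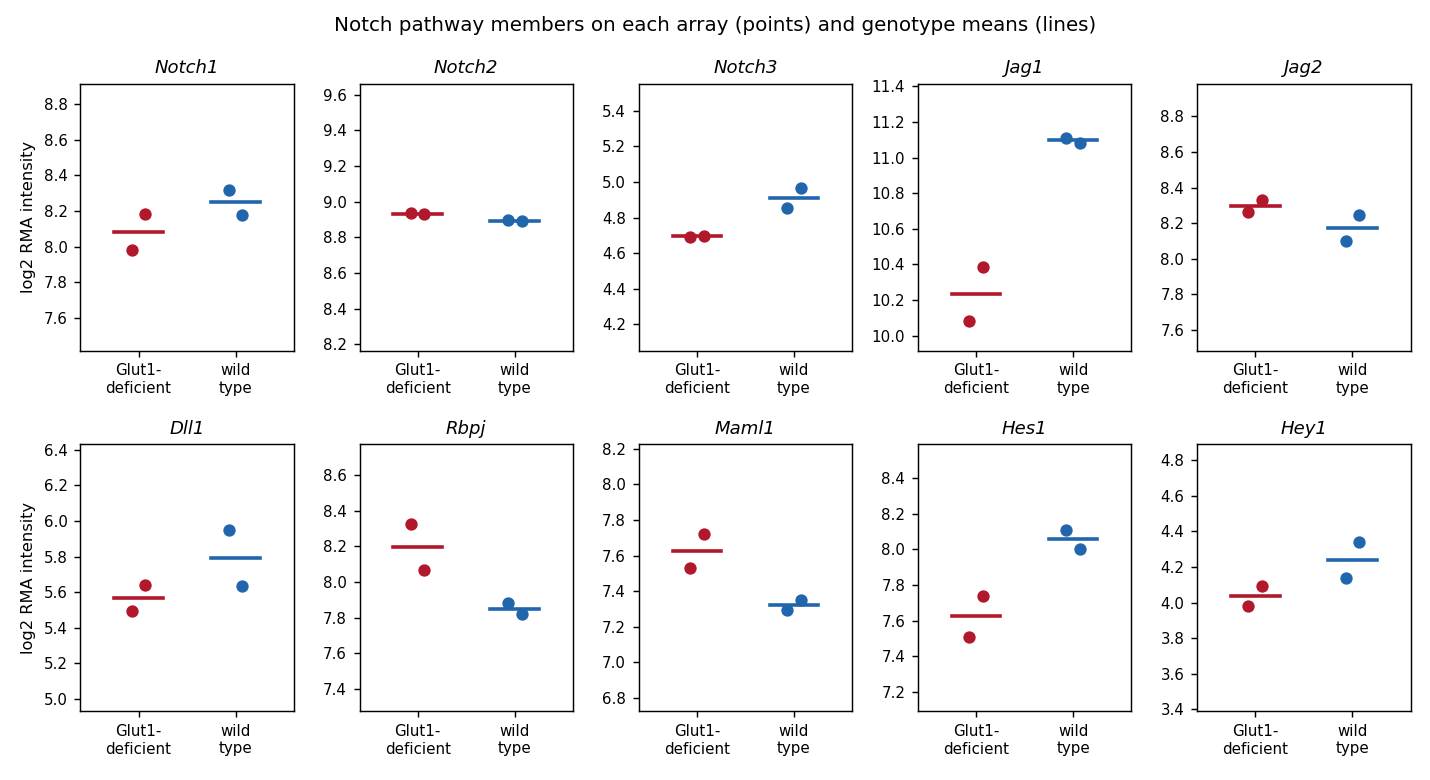
Log2 RMA intensity (y axis, each panel spanning the same log2 range around the gene's own level) of the 10 members on each of the 2 Glut1-deficient (red) and 2 wild-type (blue) arrays, with points for arrays and lines for genotype means. Jag1 shows the widest space between the genotypes, with Glut1-deficient arrays at 10.08 and 10.38 and wild-type arrays at 11.11 and 11.08.

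Of the 3 ligands, Jag1 passed. Jag1, a Jagged ligand of epidermis and hair follicles, had log2 intensities of 10.08 and 10.38 on the Glut1-deficient arrays, against 11.11 and 11.08 on the wild-type arrays. The Glut1-deficient arrays were thus both low but differed from each other by 0.30, while the wild-type arrays differed by 0.024, and 0.70 separated the nearest arrays of the genotypes. The log2 fold change was -0.86 (SE 0.13, 95% interval -1.19 to -0.54, limma adjusted p = 0.0447). With any 1 array left out the change lay between -1.01 and -0.71, and the call was lost each time, as were the calls of all other genes. With every row of the table tested separately the limma adjusted p for Jag1 was 0.134, and no gene passed in that setting.

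Jag2, a second Jagged ligand made by keratinocytes, read 8.26 and 8.33 on Glut1-deficient arrays, against 8.10 and 8.24 on wild-type arrays. These ranges nearly touched, with 0.018 between the nearest arrays, and the log2 fold change was 0.12 (95% interval -0.13 to 0.37, limma adjusted p = 0.525). Dll1, the Delta-like ligand that marks human epidermal stem cells, read 5.50 and 5.64 on Glut1-deficient arrays, against 5.95 and 5.63 on wild-type arrays, and the genotypes overlapped (log2 fold change -0.22, 95% interval -0.58 to 0.13). A dimmer row for Dll1 read 5.20 and 5.12 on Glut1-deficient arrays and 5.15 and 5.06 on wild-type arrays, a log2 fold change of 0.051, so the Dll1 rows differed in sign and neither passed.

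The bases just before the Jag1 start site are shown because Jag1 carries the one called change among the members. They come from RefSeq, GRCm38.p6, minus strand, chr2:137116521-137116770, 250 bases read 5′ to 3′ towards the start site. No letters are in capitals because the RBPJ motif searched (GTGGGAA on either strand, TTCCCAC as read on the other) does not occur in them.
Jag1: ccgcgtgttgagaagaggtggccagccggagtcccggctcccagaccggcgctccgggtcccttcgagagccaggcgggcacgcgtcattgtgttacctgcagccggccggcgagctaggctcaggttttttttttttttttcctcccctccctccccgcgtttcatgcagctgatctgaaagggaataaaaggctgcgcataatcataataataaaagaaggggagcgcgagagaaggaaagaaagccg
Of the 10 members, 8 had a promoter in the RefSeq table, Hes1 and Hey1 being the exceptions. The RBPJ motif occurred in 0 of these 8, beside 5.42% of all 32851 promoter windows of 250 bases in the table. The N-box CACNAG, bound by HES repressors, was present on either strand for 3 of the 8, the receptors Notch1, Notch2 and Notch3, beside 36.7% of all windows. These matches describe letters in a short window.

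No receptor passed the test. Notch1, the main receptor for suprabasal commitment in mouse epidermis, read 7.98 and 8.18 on Glut1-deficient arrays, against 8.32 and 8.18 on wild-type arrays, so 1 array of each genotype coincided. Its log2 fold change was -0.17 (95% interval -0.46 to 0.12, limma adjusted p = 0.459). Notch2, a receptor found with Notch1 in the epidermis, read 8.94 and 8.93 on Glut1-deficient arrays, against 8.89 on both wild-type arrays. The arrays did not overlap, yet the difference was only 0.04 (95% interval -0.17 to 0.25, limma adjusted p = 0.833), which bounds any change of Notch2 more narrowly than those of the other members. Notch3, which is also the receptor of pericytes and vascular smooth muscle, read 4.69 and 4.70 on Glut1-deficient arrays, against 4.85 and 4.97 on wild-type arrays (log2 fold change -0.22, 95% interval -0.45 to 0.018, limma adjusted p = 0.256). Acta2, the smooth muscle actin gene of the pericyte and smooth muscle marker list, fell by 0.71 on the log2 scale on the same arrays, the other 6 markers of that list did not pass, and their part in the Notch3 value was not tested.

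The nuclear partners had positive log2 fold changes that did not pass the test. Rbpj, which holds the complex on DNA and represses targets when no Notch fragment is present, read 8.32 and 8.06 on Glut1-deficient arrays, against 7.88 and 7.82 on wild-type arrays. Both Glut1-deficient arrays were the higher ones, with 0.18 between the nearest arrays, and the log2 fold change was 0.34 (SE 0.12, 95% interval 0.038 to 0.65, limma adjusted p = 0.188). A dimmer row for Rbpj had the same direction, at 5.48 and 5.24 on Glut1-deficient arrays and 4.84 and 4.69 on wild-type arrays. That row differed by 0.60 (adjusted p = 0.184 in limma over all rows, against 0.316 for the brighter row on the same basis). Maml1, the Mastermind coactivator, read 7.53 and 7.72 on Glut1-deficient arrays, against 7.29 and 7.35 on wild-type arrays. Its log2 fold change was 0.30 (SE 0.10, 95% interval 0.036 to 0.57, limma adjusted p = 0.184), with the higher Glut1-deficient value on the other array than for Rbpj.

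Among the targets, Hes1 was lower without passing. Hes1, a transcriptional repressor and the classical Notch target of suprabasal cells, read 7.51 and 7.74 on Glut1-deficient arrays, against 8.11 and 8.00 on wild-type arrays. The genotypes were 0.27 apart at their nearest arrays. The log2 fold change was -0.43 (SE 0.11, 95% interval -0.73 to -0.14, limma adjusted p = 0.121). It passed when limma let the variance depend on intensity (adjusted p = 0.0299, and 0.0267 with robust estimation) and when only genes above the median level were tested (adjusted p = 0.0450). Hey1, the related HEY repressor, read 3.98 and 4.09 on Glut1-deficient arrays, against 4.14 and 4.34 on wild-type arrays (log2 fold change -0.20, 95% interval -0.49 to 0.081, limma adjusted p = 0.358). Hey1 was the member that lay below the median level of all tested genes, and its difference was about as large as the gap of 0.20 between the wild-type arrays.

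**Figure D2:**
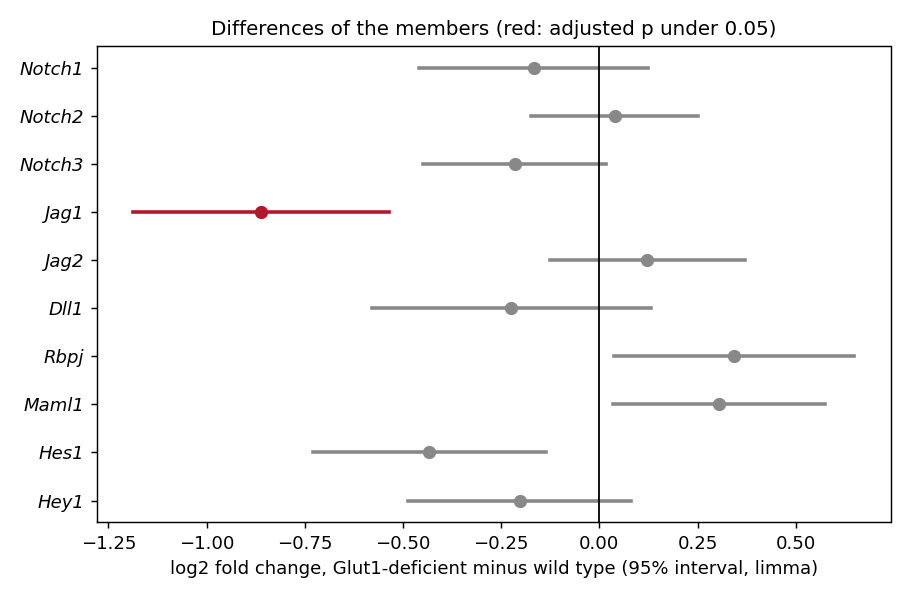
Log2 fold change (x axis, Glut1-deficient minus wild type) of each member with its 95% interval from limma, in order of role from receptors at the top to targets at the bottom, 2 arrays a genotype. Jag1, in red, is the member past the adjusted threshold, at -0.86, while the intervals of Hes1, Rbpj and Maml1 lie off 0 without passing.

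Other genes of the pathway were read from lists grouped by role, which were also chosen with earlier results of these data known. Of 81 listed genes 75 were tested, and 2 rose, 4 fell and 69 did not pass. Over all tested genes 1.79% rose and 1.05% fell. At unadjusted p under 0.05 in limma, 9 of the 75 were higher and 15 lower, beside 11% and 11.2% of all tested genes. Of the 75, 59 lay above the median level. With only genes above it fitted in limma, 7 of these were higher and 16 lower, beside 2070 and 2246 of 11090 genes. The 75 had 27 positive and 48 negative log2 fold changes and a median of -0.08. In the list of other HES and HEY genes and feedback targets, 1 of 18 tested genes rose, 3 fell and 14 did not pass. Its median was -0.12, and 2 of its genes were higher and 6 lower at unadjusted p under 0.05 in limma.

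Nrarp, an ankyrin repeat protein that is switched on by Notch and in turn destabilises the Notch complex, read 6.30 and 6.36 on Glut1-deficient arrays, against 6.98 and 7.01 on wild-type arrays. The pairs were tight and 0.63 apart, and Nrarp fell by 0.67 on the log2 scale (SE 0.085, limma adjusted p = 0.0354). Bhlhe41, a HES-related transcriptional repressor better known from the circadian clock, read 5.61 and 6.04 on Glut1-deficient arrays, against 7.63 and 7.37 on wild-type arrays, and was 3.20-fold lower (limma adjusted p = 0.0272). Id3, which blocks basic helix-loop-helix factors and answers mainly to BMP signals, read 5.60 and 5.69 on Glut1-deficient arrays, against 6.68 and 6.42 on wild-type arrays, and was 1.87-fold lower (limma adjusted p = 0.0390).

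Hes5, a classical RBPJ-dependent target, was the gene of this list that rose, and its rows disagreed. The brighter row read 5.69 and 5.79 on Glut1-deficient arrays, against 5.06 and 5.14 on wild-type arrays, which is a rise of 0.64 on the log2 scale (limma adjusted p = 0.0433). The dimmer row read 3.44 and 3.31 on Glut1-deficient arrays, against 3.73 and 3.82 on wild-type arrays, which is a log2 difference of -0.40 (adjusted p = 0.223 in limma over all rows). With the mean of both rows the log2 fold change was 0.12 and the call was lost (adjusted p = 0.489), so no single direction holds for Hes5.

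The Hes5 promoter is shown beside that of Jag1 because it holds 2 matches to the RBPJ motif, in capitals, and lets the site be seen in a target gene. It comes from RefSeq, GRCm38.p6, plus strand, chr4:154960673-154960922, 250 bases up to the start site. The first match lies 226 to 220 bases before the start site and is read on the other strand, and the second lies 83 to 77 bases before it.
Hes5: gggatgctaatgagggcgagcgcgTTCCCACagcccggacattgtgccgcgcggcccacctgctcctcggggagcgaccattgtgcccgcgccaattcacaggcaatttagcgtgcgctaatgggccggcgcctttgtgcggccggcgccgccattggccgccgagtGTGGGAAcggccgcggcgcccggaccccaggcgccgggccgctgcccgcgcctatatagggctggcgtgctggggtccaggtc
The window before Nrarp, searched in the same way, held no match to the RBPJ motif and 2 matches to the N-box.

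Genes that prepare, cut and carry the receptor and ligand mostly did not pass. Among 8 other receptor and ligand genes, 1 rose, 0 fell and 7 did not pass (limma, with 2 higher and 1 lower at unadjusted p under 0.05). The riser was Mfap5, a microfibril protein that can bind Jagged ligands and that fibroblasts also make, at 5.00 and 5.37 on Glut1-deficient arrays, against 4.11 and 4.28 on wild-type arrays. It was 1.99-fold higher (limma adjusted p = 0.0488), and the call was lost after quantile normalization over the tested genes (adjusted p = 0.0502). Of 10 fibroblast markers 9 were higher and 1 lower, with a median of 0.96, and none passed. Their summed log2 intensity was 10.41 and 9.76 on Glut1-deficient arrays 1 and 2, where Mfap5 read 5.00 and 5.37. The part of fibroblasts in the Mfap5 value was not tested. Egfl7, a secreted EGF-like protein, had a log2 fold change of -0.42 and Dner, an atypical ligand, one of 0.57, and neither passed.

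In receptor glycosylation and maturation 0 of 7 genes passed in limma (2 lower and 0 higher at unadjusted p under 0.05). Furin, the convertase that makes the first cut in the receptor, had the smallest p of that list, with 9.13 and 9.20 on Glut1-deficient arrays, against 9.62 and 9.66 on wild-type arrays (log2 fold change -0.47, limma adjusted p = 0.0634). Lfng, a Fringe enzyme that lengthens sugars on the receptor and shifts its choice of ligand, stood at -0.39 on that scale (limma adjusted p = 0.0923), and Mfng, another Fringe, one of 0.29. Of 8 genes for proteolytic release 0 passed (limma, 1 higher at unadjusted p under 0.05). Psen2, a catalytic subunit of gamma-secretase, stood at a log2 fold change of 0.50, the gamma-secretase subunit Psenen at 0.17 and Adam10 at -0.20.

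Of 16 genes for ligand endocytosis and receptor turnover, 0 rose, 1 fell and 15 did not pass (limma, 4 higher and 3 lower at unadjusted p under 0.05). Epn2, an epsin that helps cells internalise ligand and so pull on the receptor, read 5.85 and 5.77 on Glut1-deficient arrays, against 6.36 and 6.50 on wild-type arrays, and fell by 0.62 on the log2 scale (limma adjusted p = 0.0498). Neurl1b, a ubiquitin ligase for ligands, stood at -0.61 on that scale (limma adjusted p = 0.0640). Sel1l, an endoplasmic reticulum degradation adaptor whose Caenorhabditis elegans counterpart restrains Notch, had one of 0.64 (limma adjusted p = 0.0515), which passed after median centring (adjusted p = 0.0468) and cyclic loess (adjusted p = 0.0474). Among 18 genes of the nuclear complex 0 passed in limma (3 lower and 0 higher at unadjusted p under 0.05). The histone deacetylases Hdac1 and Hdac2 had log2 fold changes of -0.51 and -0.27, and L3mbtl3, a corepressor partner of RBPJ, one of -0.42.

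**Figure D3:**
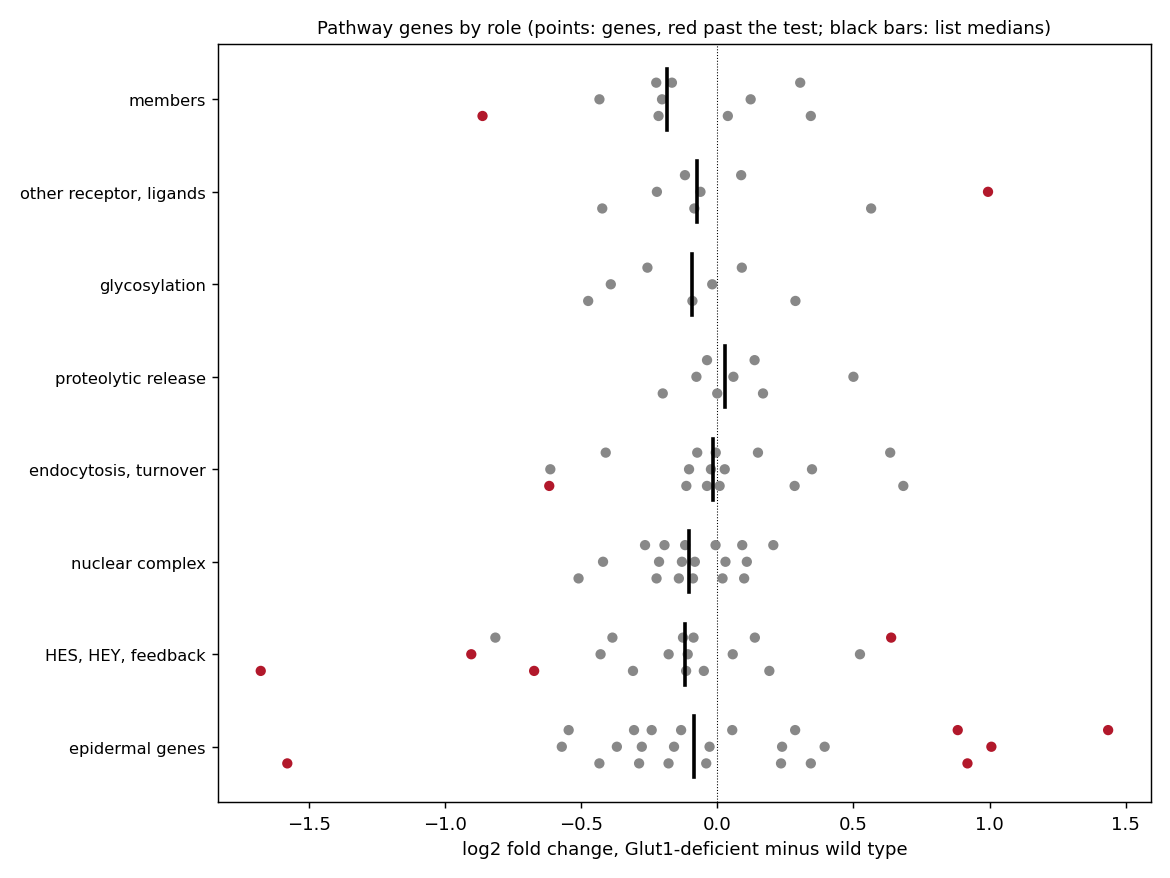
Log2 fold change (x axis, Glut1-deficient minus wild type) of every tested gene in the member list, the 6 pathway lists and the epidermal list, with red points for genes past the adjusted threshold and black bars for list medians. Among the 6 pathway lists, the genes that fell furthest are in the HES, HEY and feedback list. They are Bhlhe41 (-1.68), Id3 (-0.90) and Nrarp (-0.67), and Jag1 of the members stands at -0.86. No gene with a Hes or Hey symbol in that list fell, and Hes5 rose by its brighter row. The list medians lie between -0.18 for the members and 0.03 for proteolytic release.

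Epidermal genes that are linked to Notch in the literature, a list also chosen with earlier results of these data known, split. Of 24 tested, 4 rose, 1 fell and 19 did not pass, with a median of -0.09. Over all tested genes 1.79% rose and 1.05% fell. At unadjusted p under 0.05 in limma, 6 of the 24 were higher and 8 lower, beside 11% and 11.2% of all tested genes. Of the 24, 22 lay above the median level. With only genes above it fitted in limma, 7 of these were higher and 8 lower, beside 2070 and 2246 of 11090 genes. Ovol1, a zinc finger repressor of early differentiation, read 6.72 and 6.90 on Glut1-deficient arrays, against 5.87 and 5.74 on wild-type arrays, and was 2.01-fold higher (limma adjusted p = 0.0272). Cebpb, a transcription factor of suprabasal keratinocytes, read 7.98 and 7.78 on Glut1-deficient arrays, against 6.86 and 7.06 on wild-type arrays, and was 1.89-fold higher (limma adjusted p = 0.0389). The other genes that rose were Klf4, a barrier transcription factor, and Tslp, a cytokine of barrier-impaired epidermis, with log2 fold changes of 0.88 and 1.44. Involucrin, Ivl, a cornified envelope precursor, fell by 1.58 on the log2 scale. The members of this list that passed therefore included differentiation genes of both directions.

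Jag1 was the member with the smallest p, and its profile over the 4 arrays was set beside those of 10377 other genes above the median level. The nearest by Euclidean distance between centred log2 profiles were Tlr3, a receptor for double-stranded RNA (distance 0.049), Tnfaip3, the NF-kappaB feedback inhibitor A20 (0.049), Hells, a chromatin remodeller of dividing cells (0.055), Zfp36l1, an mRNA decay factor (0.056), and Tle4, a Groucho corepressor used by HES proteins (0.059). Their log2 fold changes lay between -0.90 for Hells and -0.82 for Tle4. With 4 arrays such likeness mainly reflects a change of similar size.

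The labelled cell type and the genotype were examined on the same arrays. Keratinocyte markers were bright, with Krt14 at 12.15 and 12.21 on Glut1-deficient arrays and 12.56 and 12.54 on wild-type arrays, Perp between 11.86 and 12.18 and Krt17 between 11.75 and 12.11, and 0 of 12 tested markers passed in limma (2 higher and 6 lower at unadjusted p under 0.05). Of 10 fibroblast markers 9 were higher in Glut1-deficient cells, none passed (limma, 8 higher and 1 lower at unadjusted p under 0.05), and the median was 0.96. Their summed intensity on the log2 scale was 10.41 and 9.76 on Glut1-deficient arrays, against 9.26 and 9.16 on wild-type arrays. Glut1-deficient array 1 thus had the higher fibroblast signal. Of the 4 members at unadjusted p under 0.05 in limma, Jag1, Hes1 and Rbpj were further from wild type on this array than on array 2. Maml1 was nearer to wild type on it. Of the fibroblast markers, Pdgfra read 8.64 and 7.47 on Glut1-deficient arrays, against 5.97 and 5.84 on wild-type arrays. Dcn, which encodes decorin, read 8.18 and 7.01, against 5.65 and 5.52. Fbln1 was the marker that went the other way, at 7.21 and 7.56 on Glut1-deficient arrays and 8.00 and 7.98 on wild-type arrays.

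Of 8 melanocyte markers 4 rose, among them Dct, Tyrp1 and Pmel, beside 1.79% of all tested genes. The other 4 did not pass, and 1 of the 8 had a negative log2 fold change. Summed log2 intensities of the 8 were 9.91 and 10.01 on Glut1-deficient arrays, against 8.88 and 8.56 on wild-type arrays. Of 7 endothelial markers 1 rose, Kdr, by 2.38 on the log2 scale, beside 1.79% of all tested genes. The other 6 did not pass, among them Pecam1 (log2 fold change -0.35) and Cdh5 (-0.10), and the list median was -0.05. Of 7 pericyte and smooth muscle markers 1 fell, Acta2, beside 1.05% of all tested genes. The other 6 did not pass, among them Myh11 (-0.37) and Cspg4 (-0.01), and the list median was -0.12. None of 6 leukocyte, 4 Langerhans cell, 4 Merkel cell and 2 Schwann cell markers passed in limma (3, 0, 1 and 0 of them at unadjusted p under 0.05), and their list medians lay between -0.09 and 0.13. No marker value was 0, since log2 array values have a floor above it, between 1.33 and 13.4 in this table. The part of these other cells in the Jag1, Hes1, Rbpj and Maml1 values was not tested, and in pooled RNA fewer cells of a type and less RNA per cell cannot be told apart.

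**Figure D4:**
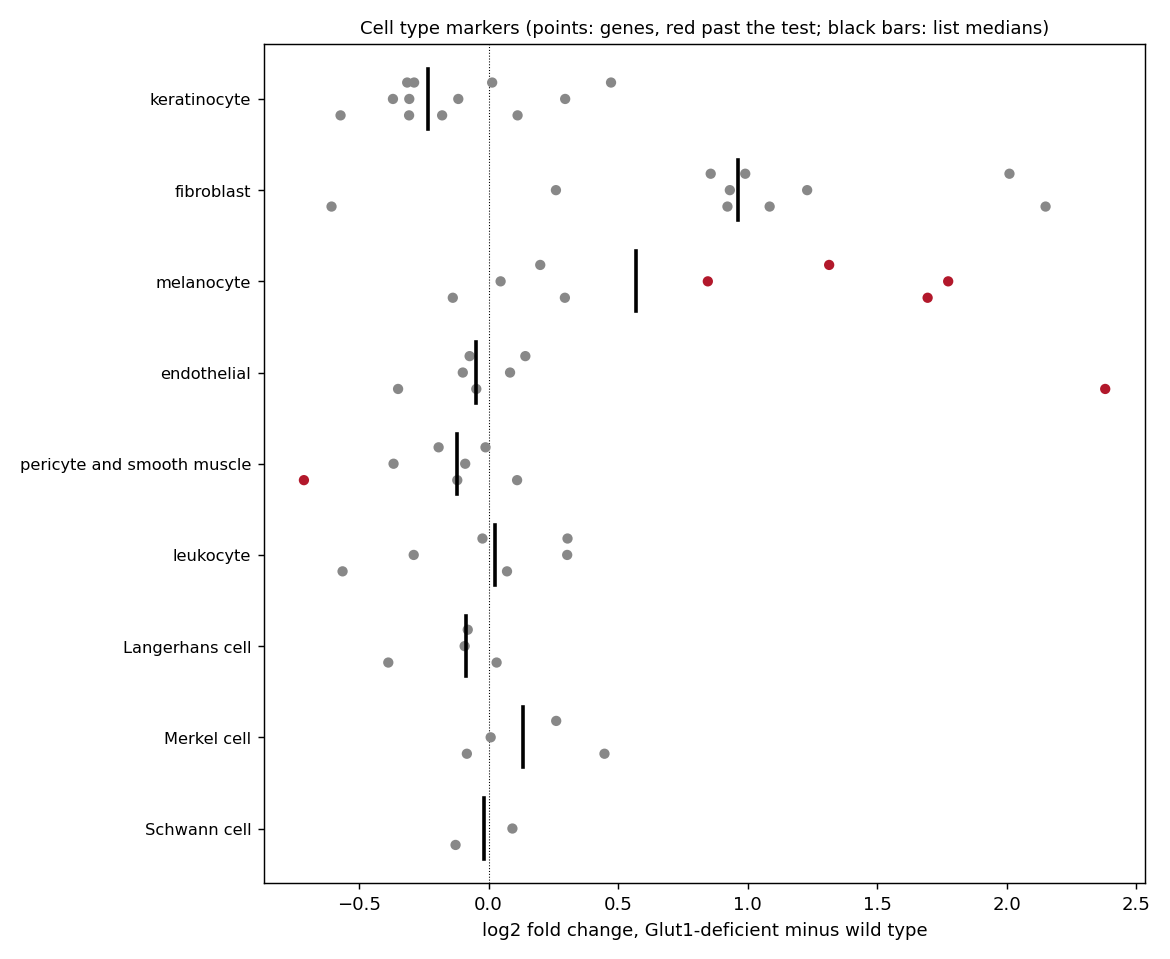
Log2 fold change (x axis, Glut1-deficient minus wild type) of each tested marker in 9 cell type lists, with red points for genes past the adjusted threshold and black bars for list medians. Fibroblast markers have a median of 0.96 with none past the threshold, and keratinocyte markers one of -0.23.

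Slc2a1, which encodes Glut1, read 11.01 on both Glut1-deficient arrays, against 11.13 and 11.05 on wild-type arrays in its brighter row (log2 fold change -0.07, limma adjusted p = 0.757 over all rows). Its dimmer row differed by -0.52 (adjusted p = 0.247 in limma over all rows). Which exons were deleted is not given in the sources used here, so neither row serves as a check of the labels, and the genotypes are named as labelled. For extraction 1000000 Glut1-deficient and 1500000 wild-type cells were lysed per sample, and array medians lay between 4.07 and 4.11.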

How the data were processed

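The values are log2 intensities per transcript cluster, deposited by the authors. The submitters' processing notes name Affymetrix Expression Console and RMA; their versions, settings and genome build are not stated there. RMA gives all arrays a common distribution, so changes are relative to other genes.

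Rows with exactly 1 symbol in the platform annotation were used (23521 of 41345), and a gene with several rows, such as Dll1 and Rbpj among the members, was represented by its brightest, with no filter on dim genes. Genotypes were compared with limma 3.58.1 (R 4.3.3; lmFit, eBayes, Glut1-deficient minus wild type, two-sided, Benjamini-Hochberg over 22180 genes, threshold 0.05, 2 residual degrees of freedom and a prior worth 2.95), after the fit was tested on simulated data. "Rose" and "fell" are used of genes that passed. An exact permutation test of 2 against 2 arrays cannot go below p = 0.333. Arrays are called biological replicates in the labels, which do not say how pools share mice, so p-values measure the spread between pools, and their number limits the precision.

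Members and gene lists were chosen with earlier results of these data known. Named were all members, the genes past the test and the 3 with the smallest p of each pathway and epidermal list, the 3 brightest of each cell type list, and the 5 profiles nearest to that of the member with the smallest p (no predicted genes, olfactory receptors or small RNAs). Some listed genes are not reported here. There were 15 alternatives: variance priors, normalizations, row rules, a level filter, each array left out, a replicate block, another threshold and an unmoderated statistic. Promoters are RefSeq's, GRCm38.p6. Figures were drawn with matplotlib 3.10.9.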

Additional observations from a re-analysis of the deposited data

How the results depend on the processing

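Each of the 34 named pathway and epidermal genes was read from its brightest row or the mean of its rows. All of them, the 10 members included, kept their direction under each of the 15 alternatives in which they were tested. For most alternatives this was fixed in advance. The variance priors, level filter, separate rows, replicate block, other threshold and unmoderated statistic leave the log2 fold change itself unchanged. Nor could leaving out 1 array turn a gene whose genotypes did not overlap. The dimmer rows of Hes5 (-0.40 against 0.64) and Dll1 (0.051 against -0.22) had the opposite sign. For the other 24 named genes, 246 comparisons with an alternative kept their side of the threshold, 79 lost it and 32 gained it. For the members, 139 kept it, 7 lost it and 3 gained it. All 7 were Jag1: the 4 omissions of an array, every row tested separately (adjusted p = 0.134), the replicate block (0.0928) and the unmoderated statistic (0.271). The 3 gains were Hes1.

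Counts of calls moved more, in limma except for the unmoderated statistic. Over all genes, 397 rose and 233 fell. With an intensity trend 1344 rose and 1327 fell, and with robust estimation besides 1368 and 1361. At adjusted p under 0.1 these counts were 1024 and 831. Among the 11090 genes above the median level, fitted alone, 1214 rose and 1113 fell. With every row tested, or with the unmoderated statistic, 0 rose and 0 fell (1971 higher and 1916 lower at unadjusted p under 0.05 for the first, 1844 and 1802 for the second). Among members, 2 fell under both trend settings and under the level filter, and 0 with every row tested or the unmoderated statistic (2 and 1 lower at unadjusted p under 0.05). Among other pathway genes, 5 rose and 13 fell with a trend, 6 and 13 with robust estimation, 4 and 12 under the level filter, and 5 and 10 at adjusted p under 0.1. There 1 rose after quantile normalization or with the mean of a gene's rows, and 0 rose and 0 fell with every row tested or the unmoderated statistic (6 and 14, and 6 and 15, at unadjusted p under 0.05). Among epidermal genes, 8, 9, 5 and 4 fell under the trend, robust, level filter and 0.1 settings, and 0 rose and 0 fell with every row tested or the unmoderated statistic (5 and 8 at unadjusted p under 0.05 in both).

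With any 1 array left out, 0 genes rose and 0 fell in limma, among members, pathway and epidermal genes too (1518 to 2402 genes higher and 1430 to 2225 lower at unadjusted p under 0.05, with 0 to 1 members higher and 1 to 2 lower). Array numbers are shared between genotypes, and the labels do not say whether same-numbered arrays were prepared together. Over all genes same-numbered arrays did not deviate together (r = -0.025). A single correlation cannot exclude a weak shared effect or one limited to some genes. The main fit treated the numbers as names. With the number as a replicate block 32 genes rose and 5 fell over all genes, and 0 members, 0 other pathway genes and 0 epidermal genes passed in limma (2 members, 8 other pathway genes and 5 epidermal genes higher, and 2, 15 and 8 lower, at unadjusted p under 0.05). Scaling moved the median of all genes by at most 0.0066, and the endocytosis and turnover list median changed sign under cyclic loess (-0.01 as deposited, 0.0035 then).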
